A study of Mus musculus with 2 samples.

Results

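Kruppel-like factors (KLFs) are transcription factors whose carboxy-terminal zinc fingers bind GC-rich and CACCC elements in promoters. Levels of 10 of them were compared between EzrinT567D positive and EzrinT567D negative hepatocytes: Klf2, Klf3, Klf4, Klf6, Klf9, Klf10, Klf11, Klf12, Klf13 and Klf15. A probe set, the group of probes through which the array reads a transcript, was included when it was annotated to a single gene and that gene was one of the 10. This gave 33 probe sets out of 34945 with 1 gene symbol, and 10 genes out of 18193.

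Both arrays came from male FVB mice aged 6 to 8 weeks that had received, by hydrodynamic tail vein injection, 10 µg of a plasmid encoding EzrinT567D together with 0.8 µg of a plasmid for the Sleeping Beauty transposase (pCMV/SB) in 2 ml of saline. Such an injection drives plasmid DNA into part of the hepatocytes, and ezrin, which ties the plasma membrane to cortical actin, carries in T567D an acidic residue in place of a threonine whose phosphorylation activates it. The EzrinT567D positive group was the GFP+ fraction of the collagenase-released hepatocytes and the EzrinT567D negative group was the GFP- fraction, so both had gone through injection, digestion and sorting. Each group held 1 array, no test between groups exists, and all differences below are descriptions of 2 arrays. Source names put the isolation 1 week after injection and the growth protocol gives chow for both, whereas the description fields state 2 months for both samples and name a fast food diet where they describe the positive one. Diet and the ezrin transgene therefore cannot be told apart from these labels. Plasmid uptake and GFP cannot be told apart from ezrin either, since neither array came from cells given an empty plasmid. How many mice were used, and whether their RNA was pooled, is not stated in the labels.

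The KLF family is usually divided by cofactor. Klf2, Klf4 and Klf6 act mainly as activators, Klf3 and Klf12 are repressors that recruit the CtBP corepressors, and Klf9, Klf10, Klf11 and Klf13 carry a repression domain that binds Sin3A. Klf15 stands outside these groups and in liver promotes amino acid breakdown and gluconeogenesis during fasting. Several members are induced rapidly by outside signals: Klf2, Klf4, Klf6 and Klf10 behave as immediate early genes in many cells, Klf9 and Klf15 respond to glucocorticoids, and Klf10 to TGF-beta.

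Upstream sequences are shown for Klf6, the member with the highest ratio below, and for Klf9, which had 7 probe sets with differing ratios. They run from 250 bases before the RefSeq start of the gene to the base before it (RefSeq, GRCm38.p6), 5′ to 3′ on the gene's strand. Klf6 lies on chromosome 13 (chr13:5861239-5861488, plus strand), with a GC box (GGGCGG) and an E-box (CACGTG) in capitals. Klf9 lies on chromosome 19 (chr19:23140976-23141225, plus strand), with a stretch that fits TGANTCA, where N is any base, in capitals. This stretch, TGAATCA, differs in its middle base from the AP-1 site, TGA(C/G)TCA.
Klf6: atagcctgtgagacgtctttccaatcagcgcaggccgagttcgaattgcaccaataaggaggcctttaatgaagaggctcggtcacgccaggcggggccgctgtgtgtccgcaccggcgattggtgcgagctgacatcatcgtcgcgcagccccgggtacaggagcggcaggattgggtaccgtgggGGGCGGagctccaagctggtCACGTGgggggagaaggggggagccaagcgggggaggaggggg
Klf9: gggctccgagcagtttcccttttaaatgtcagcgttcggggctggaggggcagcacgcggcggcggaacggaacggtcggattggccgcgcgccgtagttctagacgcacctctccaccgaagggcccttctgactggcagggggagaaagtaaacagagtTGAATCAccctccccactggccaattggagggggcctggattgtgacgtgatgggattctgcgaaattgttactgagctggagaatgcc
RefSeq sequences were matched for 9 of the 10 members. Searched on both strands, a GC box occurred in 7 of these 9 windows, against 32.7% of 32851 promoter windows of the same length, and an E-box in 4 (Klf4, Klf6, Klf11 and Klf15), against 6.02%. The CACCC box (CCACCC) occurred in 3, against 28.1%. The 9 windows had a GC content from 48.0% (Klf12) to 78.4% (Klf3), with 64.8% for Klf6 and 59.6% for Klf9, and 8 of them exceeded the median of 52.4% over all promoters. The part of this base composition in the GC box and E-box counts was not tested. The letters TGANTCA, a looser pattern than the AP-1 site, occurred in the Klf9 window alone among the 9 and in 6.75% of all. The cyclic AMP response element (TGACGTCA) and the CArG box of serum response factor were in 0 of the 9 windows, and in 1.55% and 1.47% of all. The first letters of the cyclic AMP element alone, TGACG, were in 6 of the 9, that of Klf9 included, and in 17.8% of all. These matches are letters in a window and say nothing about binding.

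Signals are MAS5 intensities on a linear scale, scaled by the authors to one overall level. The floor, a background level taken from 85 probe sets for receptors of smell, taste and pheromones, as the 95th percentile of their signals, was 334.0 in the positive and 275.2 in the negative array. A log2 ratio, always positive over negative, is given where both arrays exceeded their floors. Where only 1 did, the dim signal was raised to its floor and the ratio is a bound. Of the 33 probe sets, 20 exceeded both floors, 4 exceeded 1 of them and 9 exceeded neither. At the level of genes, each read through its brightest probe set, 9 of the 10 exceeded both floors and Klf4 exceeded neither. With no replicates, the only spread that could be measured was between probe sets of a gene. In 3131 genes 2 or more of them exceeded both floors, and the log2 ratios of the brightest 2 differed with an SD of 0.41. This is called the technical SD here. It is the spread of a difference between 2 ratios from the same 2 arrays. It therefore holds no variation between mice, sorts or hybridizations and is not the error of a single ratio. Hepatocyte identity was plain in both arrays, where 8 of 8 hepatocyte markers, among them Alb, Apoa1 and Ttr, read from 11718 to 49685 in the positive and from 14622 to 53836 in the negative array. Both Ezr probe sets lay below both floors (15.7 and 13.6 in the positive array, 135.3 and 7.6 in the negative array), so the sort labels could not be checked through Ezr.

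**Figure D1:**
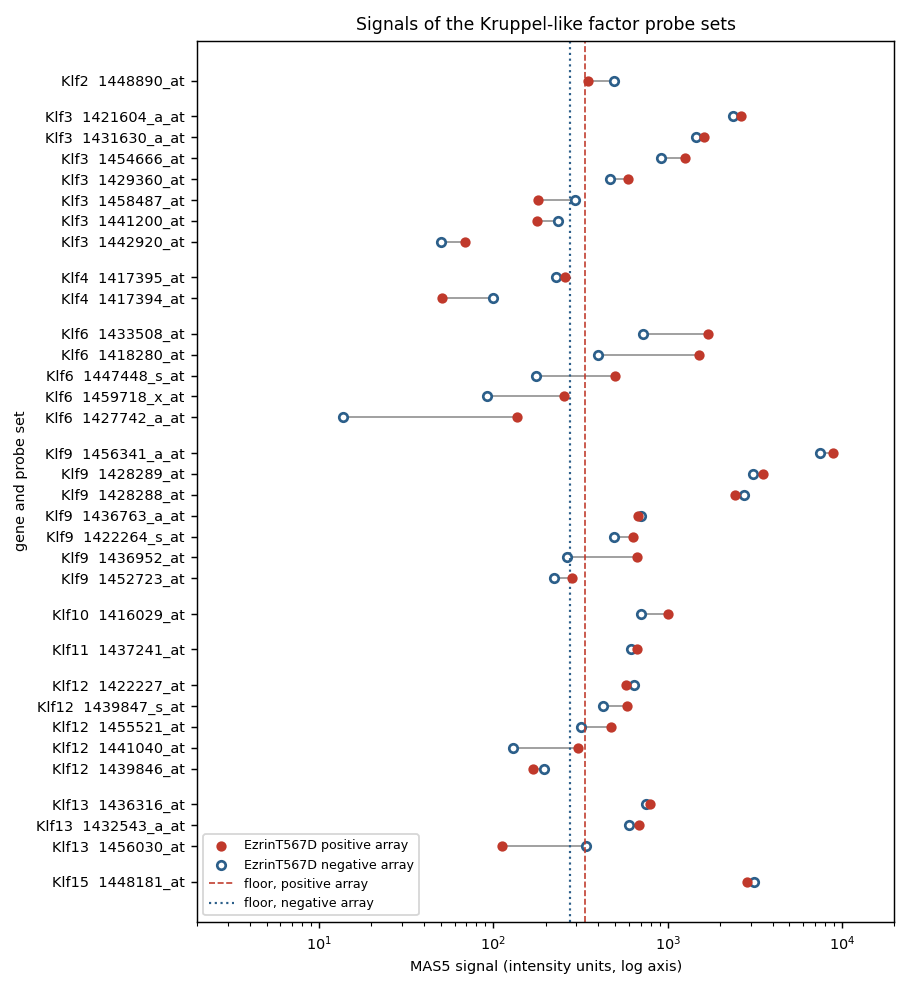
Signals of the 33 member probe sets on a log axis of MAS5 intensity units, with the positive array as filled and the negative array as open circles, 1 array each. The dashed and dotted lines are the floors of 334.0 (positive) and 275.2 (negative). The 5 Klf6 probe sets all lie further right in the positive array, whereas most other pairs lie close together.

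Read by the brightest probe set, Klf6 was the only member that differed by at least 2-fold. A dimmer probe set of Klf9, 1436952_at, was also at least 2.42-fold higher, as a bound. Over all 9866 genes above the floor in at least 1 array, 1.15% were at least 2-fold higher in the positive array and 0.598% at least 2-fold lower, and the members counted 1 of 9 and 0 of 9. With 9 members, this share rests on a single gene. The other members lay between -0.48 (Klf2) and 0.50 (Klf10) on the log2 scale. The median log2 ratio was 0.13 over the 9 members and 0.00 over all genes. By signal, genes above both floors had a median of 0.08 at a mean signal up to 1000 and of -0.05 over 1000 up to 10000, the ranges of the members. Of the 9 members, 6 were higher and 3 lower. Of all genes, 46.3% were higher and 48.0% lower, and the rest had a ratio of 0. Ratios larger in size than the technical SD were found for 3 of 9 members (Klf6, Klf10 and Klf2) and for 21.9% of all genes.

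**Figure D2:**
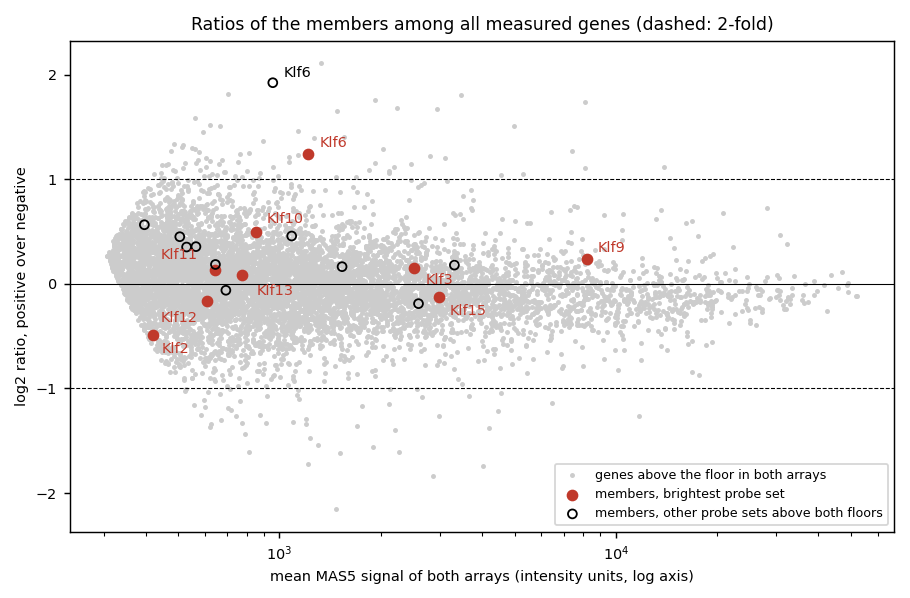
The log2 ratio of positive over negative against the mean MAS5 signal of both arrays (log axis) for the 8248 genes above both floors in grey, with member probe sets marked. Both Klf6 probe sets above both floors lie over the upper dashed line (2-fold), and all other member probe sets shown lie between the dashed lines.

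Among the activators, Klf6, which is induced in injured liver and in early hepatic stellate cell activation, had 5 probe sets that all read higher in the positive array. The brightest, 1433508_at, had a signal of 1712 in the positive array and 727 in the negative array, a log2 ratio of 1.24 (2.36-fold). The probe set 1418280_at, designed on a RefSeq mRNA, read 1512 in the positive and 399.0 in the negative array, a log2 ratio of 1.92 (3.79-fold). These ratios differ from each other by 0.69 but both exceed 2-fold, the direction is shared, and each is larger than the technical SD of 0.41. The probe set 1447448_s_at read 496.3 in the positive array and 175.0, below the floor, in the negative array, so it was at least 1.80-fold higher. The remaining pair lay below both floors, at 253.2 and 137.0 in the positive array and at 92.6 and 13.8 in the negative array (1459718_x_at and 1427742_a_at), and no fold is given for them. By the brightest probe set, Klf6 ranked 42nd from the top among the 9866 genes. Genes with a mean signal over 1000 and up to 10000, the range of Klf6, had a log2 ratio of 0.31 at their 90th percentile.

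Klf2, a factor that blood flow induces in endothelial cells and that keeps T cells quiescent, had the lowest ratio among members. Its 1 probe set, 1448890_at, read 349.7 in the positive array and 489.3 in the negative array, a log2 ratio of -0.48 (1.40-fold lower). Its positive signal was close to that array's floor of 334.0, and with the floor at the 99th percentile the ratio became a bound of -0.20. Klf4, a factor of epithelial differentiation and one of the factors that reprogram fibroblasts to pluripotency, was not above background in either array. Its probe sets read 256.4 and 50.7 in the positive array and 229.3 and 99.1 in the negative array. The difference ran in opposite directions in the 2 probe sets, and no ratio is given.

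Since Klf2 and Klf4 are abundant in endothelial cells and Klf6 in stellate cells and macrophages, markers of these cells are set beside them. In bulk RNA, fewer cells of a type and less RNA per cell cannot be told apart. Of 14 endothelial markers, 8 exceeded a floor, 5 of them higher and 1 lower, and the summed signal of all 14 was 5085 in the positive and 4865 in the negative array. Their single signals ran from 10.8 to 1418 in the positive and from 69.9 to 1255 in the negative array. The endothelial cadherin Cdh5 read 507 in the positive and 283.0 in the negative array (log2 ratio 0.84), followed by Fcgr2b (0.35), Kdr (0.19), Clec4g (0.18) and Stab2 (0.11), all above both floors, while 6 others, among them Pecam1, Tie1 and Lyve1, were below both. The flow-regulated genes Nos3 and Thbd, known targets of Klf2 in endothelium, were also among these 6. The lower marker, Eng, read 168.3, below the floor, in the positive array and 464.8 in the negative array, at least 1.39-fold lower. The bounds of Tek and Stab1 gave no direction. Of 12 Kupffer cell and macrophage markers, 5 exceeded a floor, 1 higher and 4 lower. The summed signal of all 12, those below both floors included, was 3122 in the positive and 4189 in the negative array. The complement gene C1qb (-0.66) and the lysozyme gene Lyz2 (-0.40) were lower, Csf1r was higher (0.33) and Clec4f had a ratio of -0.10, while 7 others, among them Adgre1, Cd68 and Marco, were below both floors. Of 11 stellate markers, 9 exceeded a floor, 5 higher and 4 lower, with a median log2 ratio of 0.22. The summed signal of all 11 was 4368 in the positive and 4509 in the negative array. Lrat (0.39) and Col1a2 (0.32) were higher, Rgs5 (-0.79) and Dcn (-0.38) lower, and Des and Pdgfrb were below both floors. For lymphocyte and neutrophil markers 1 of 10 exceeded a floor, and for cholangiocyte markers 0 of 5. The part of other cell types in the Klf2 and Klf6 ratios was not tested.

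Of the Sin3A-binding group, the 4 members had ratios above 0 by their brightest probe set, all but that of Klf10 below the technical SD. Klf10, a TGF-beta-inducible repressor that also oscillates with the circadian clock in liver, read 999 in the positive and 708 in the negative array through its 1 probe set (1416029_at), a log2 ratio of 0.50 (1.41-fold higher). Of all 9866 genes, 91.3% had a lower ratio. Klf11, its closest relative, read 672 in the positive and 613 in the negative array (1437241_at), a log2 ratio of 0.13, which is smaller than the technical SD. Klf13, a factor that activates the chemokine gene Ccl5 in T cells, read 797 in the positive and 753 in the negative array in its brightest probe set (1436316_at, log2 ratio 0.08). The Klf13 probe set 1432543_a_at read 687 in the positive and 604 in the negative array (0.18). The other, 1456030_at, read 111.9, below the floor, in the positive array and 341.9 in the negative array, at least 1.02-fold lower.

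Klf9, a glucocorticoid- and thyroid hormone-responsive repressor, had 7 probe sets, and those above both floors had ratios on both sides of 0. The brightest, 1456341_a_at, read 8862 in the positive and 7529.8 in the negative array, a log2 ratio of 0.24. Next to it, 1428289_at read 3517 in the positive and 3107 in the negative array (0.18), whereas 1428288_at read 2421 in the positive and 2760.2 in the negative array (-0.19). The probe set 1436763_a_at read 678 in the positive and 708 in the negative array (-0.06), and 1422264_s_at, designed on a RefSeq mRNA, read 634 in the positive and 495.5 in the negative array (0.36). All 5 are smaller than the technical SD, and their range of 0.54 is close to the median range of 0.50 over 1168 genes with at least 3 such probe sets. The probe set 1436952_at stood apart from these: it read 667 in the positive and 266.2 in the negative array, just below that floor of 275.2, and was at least 2.42-fold higher (a log2 ratio of 1.32 from the signals as deposited, which a slightly lower floor would have counted as measured), against a background of 1.26% of probe sets at least 2-fold higher. The last, 1452723_at, read 283.8 in the positive and 222.7 in the negative array, below both floors.

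The CtBP-binding repressors had ratios below the technical SD by their brightest probe sets, but 1 other probe set of Klf3 and 2 of Klf12 exceeded it. Klf3, which represses genes in red cell precursors and fat cells, had 4 probe sets above both floors, all higher in the positive array. The brightest, 1421604_a_at, read 2649.8 in the positive and 2385 in the negative array (log2 ratio 0.15), and the largest ratio, 0.46, was that of 1454666_at, which read 1258 in the positive and 917 in the negative array. The probe set 1431630_a_at read 1622 in the positive and 1448 in the negative array (0.16), and 1429360_at read 594 in the positive and 465.4 in the negative array (0.35). All 4 differences thus ran the same way, and only that of 1454666_at exceeded the technical SD. The probe set 1458487_at read 179.7 in the positive and 294.5 in the negative array, and its bound gave no fold. The last 2, 1441200_at and 1442920_at, lay below both floors, at 178.3 and 68.4 in the positive array and at 234.9 and 50.0 in the negative array.

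Klf12, which represses the AP-2 alpha gene, differed in sign between its probe sets. The brightest, 1422227_at, read 576 in the positive and 644 in the negative array, a log2 ratio of -0.16. The probe sets 1439847_s_at (584 in the positive, 427 in the negative array) and 1455521_at (473 in the positive, 320.1 in the negative array) had ratios of 0.45 and 0.56. The remaining pair lay below both floors: 1441040_at read 307.6 in the positive and 130.5 in the negative array, and 1439846_at read 169.0 in the positive and 194.1 in the negative array. The mean over the 3 ratios was 0.28, so that the direction of Klf12 depends on the probe set read. Of the 5 members with at least 2 probe sets above both floors, 3 (Klf3, Klf6 and Klf13) had ratios of 1 sign in all of them, as had 48.8% of the 3131 such genes.

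Klf15 read 2849.8 in the positive and 3112 in the negative array through its 1 probe set (1448181_at), a log2 ratio of -0.13 (1.09-fold lower) that is smaller than the technical SD. Enzymes of amino acid breakdown and gluconeogenesis, the processes that Klf15 promotes, were mostly lower in the positive array: of 13 above both floors 10 were lower and 3 higher, and 1 of the lower ones reached 2-fold. The median log2 ratio was -0.27, and 48.0% of all genes were lower. Hepatocyte markers were lower to a similar extent, 7 of 8 with a median of -0.23. The 2 lists share Tat, the gene at the enzyme median. The 349 genes with a mean signal over 10000 had a median of -0.13. The part of signal level and of Klf15 in the enzyme ratios was not tested. The aspartate aminotransferase Got1 read 1418 in the positive and 2847.5 in the negative array (-1.01), the gluconeogenic enzymes Pck1 and Fbp1 had ratios of -0.60 and -0.59, and Bcat2, which starts the breakdown of branched-chain amino acids, was higher (0.68).

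**Figure D3:**
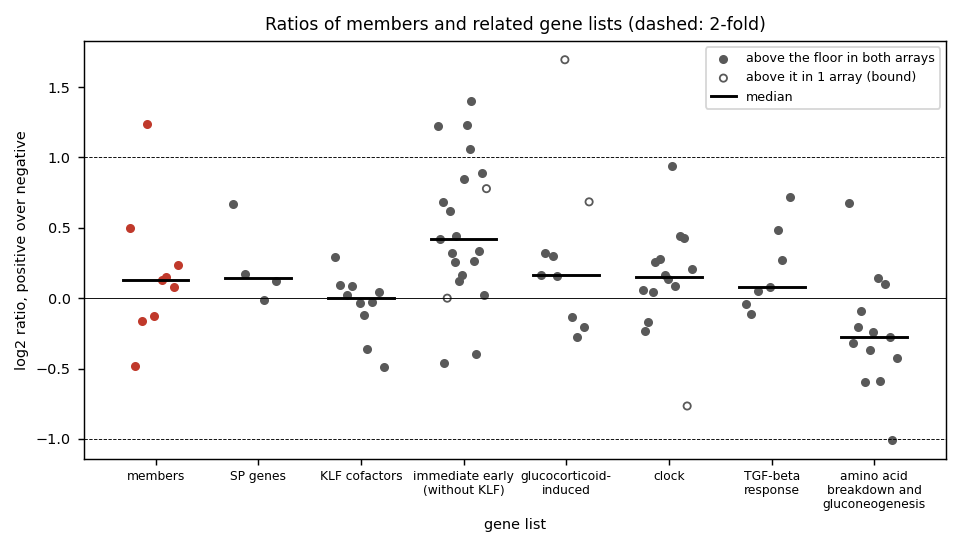
Log2 ratios of positive over negative for the 9 members and for the genes of 7 related lists that exceeded the floor in at least 1 array, with open circles for bounds and bars for medians. The immediate early genes have the highest median (0.42) and the amino acid and gluconeogenesis enzymes the lowest (-0.27), while the median of the members is 0.13.

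The other immediate early genes above a floor were largely higher. Among the members induced in this way, Klf2 was lower (-0.48) and Klf4, below both floors, had no ratio. Of 25 immediate early genes without the KLFs, 21 exceeded a floor, of which 18 were higher and 2 lower (Nr4a2 and Socs3), and 4 were at least 2-fold higher. Over all genes, 46.3% were higher and 1.15% at least 2-fold higher. The median log2 ratio of the immediate early genes was 0.42, against 0.00 over all genes. The bound of Ier5 gave no direction. The transcription factor gene Maff read 2253 in the positive and 852 in the negative array, a log2 ratio of 1.40. The stress-induced factor gene Atf3 read 3913 in the positive and 1674.5 in the negative array (1.22). The largest ratios after Maff included those of the early response gene Ier2 (1.23) and the antiproliferative Btg2 (1.06). These 4 are the highest of the list, and the Klf6 ratio of 1.24 lies in their range, above the list's median of 0.42. The Klf10 ratio of 0.50 lies near that median. The rest ranged from -0.46 for Nr4a2 to 0.89 for Csrnp1 among genes above both floors. Tissue digestion and sorting also induce such genes, and their part in these ratios was not tested.

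Lists of genes known to respond to the same inputs as Klf9, Klf10 and Klf15 had smaller medians than the immediate early genes (0.42). Some of their genes, such as Pdk4 and Nr1d1, had ratios above that median. Of 10 glucocorticoid-induced genes 9 exceeded a floor, 6 of them higher and 3 lower, with a median of 0.16. The gene at this median, Dusp1, is also in the immediate early list. Over all genes, 46.3% were higher and 1.15% at least 2-fold higher. Sgk1 (0.32) and Lpin1 (0.30) were higher, and Tat (-0.27) and Mt2 (-0.21) lower. Pdk4, the kinase that restrains pyruvate dehydrogenase and the only one of the 9 at 2-fold, read 890.3 in the positive array and 187.6, below the floor, in the negative array, at least 3.24-fold higher. Of 17 clock genes on the array 14 exceeded a floor, 11 higher and 3 lower, with a median of 0.15. The nuclear receptor gene Nr1d1 was the highest of these, at 1068 in the positive and 557 in the negative array (0.94), followed by Hlf (0.44), Per2 (0.43) and Nfil3 (0.28). Of the 3 lower ones, Tef and Dbp had ratios of -0.23 and -0.17. The third, Cry1, read 244.9, below the floor, in the positive array and 568 in the negative array, at least 1.70-fold lower. TGF-beta response genes had 7 of 9 above a floor, 5 higher and 2 lower, with a median of 0.08. Among them the SMAD corepressor Skil (0.72) and Id3 (0.49) were higher, Tgif1 had 0.27 and Tgfbi -0.11.

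Transcripts of KLF cofactors showed no common direction. Of 12, 10 exceeded both floors, 5 higher and 5 lower and 0 by 2-fold, with a median of 0.00. Sin3b, a scaffold related to Sin3a, read 1827 in the positive and 2569 in the negative array (-0.49, beyond the technical SD), and Ctbp1, the corepressor of Klf3 and Klf12, read 711 in the positive and 914 in the negative array (-0.36). The acetyltransferase Crebbp had a ratio of 0.29 and the ubiquitin ligase Wwp1, which marks Klf2 for degradation, -0.12. Sin3a itself had a ratio of 0.08. In the remainder of the family, Klf5 read 555 in the positive and 419.9 in the negative array (0.40), and Klf1, Klf7, Klf14, Klf16 and Klf17 were below both floors. The related SP factors, which bind the same GC boxes, had 4 of 7 genes above both floors, with ratios of 0.67 for Sp1, 0.17 for Sp4, 0.12 for Sp6 and -0.02 for Sp3. The 3 Sp1 probe sets had ratios of 0.67, 0.13 and -0.25, so its direction differed between probe sets.

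**Figure D4:**
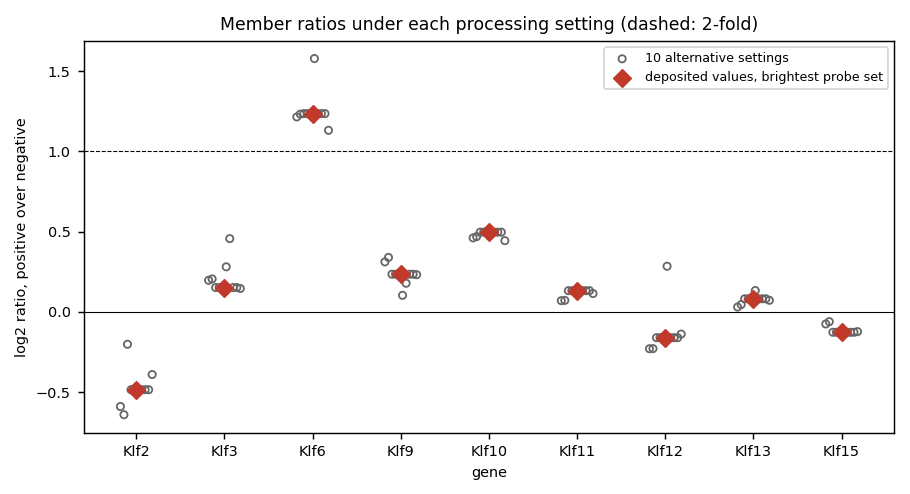
Log2 ratios of positive over negative for the 9 members above the floors, with diamonds for the deposited values and open circles for 10 alternative settings of scaling, floor and probe set choice. Klf6 stays above the dashed 2-fold line in all of them (1.13 to 1.58), but settings of the floor and the bounds leave its ratio unchanged. Klf2 spreads from -0.64 to -0.20, and Klf12 crosses 0 with the mean over probe sets.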

How the data were processed

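RNA of 2 hepatocyte samples was measured on Affymetrix Mouse Genome 430 2.0 arrays. Per the submitters' processing notes, the authors made the deposited intensity values with MAS5. No version, setting or detection call of it is stated in the labels. Each array had a 2% trimmed mean of 500.0, so a shift of all transcripts cannot be seen. The labels gave the groups, 1 array each, and the number of arrays limits the precision.

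Of 45101 probe sets, 34945 carried 1 gene symbol (GEO's platform annotation, 34754 matched to RefSeq by Entrez ID with 0 symbols changed), 932 several, 9160 none and 64 were controls. The brightest probe set by mean signal stood for a gene. Bounds that pointed away from the measured side (563 genes) were set to a ratio of 0. No pseudocount was added. Genes were counted at 2-fold. The members, gene lists, floor and bound rule were chosen with earlier results of these data known. Genes named were the members and, per list, up to 4 with the largest ratios above both floors. For hepatocyte markers the brightest were named. Others, such as markers below both floors, were named after their values were seen. Calculations used Python with numpy and pandas, and the counting was tested on simulated data.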

Additional observations from a re-analysis of the deposited data

How the results depend on the processing

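Alternatives changed the scaling (quantile, loess), the floor, the probe set read, the treatment of bounds or added 100 signal units before the ratio. The member counts of 1 at least 2-fold higher (Klf6) and 0 lower held under all 10. For Klf6, settings of the floor, the bounds and shared or mixed probes left the ratio at 1.24, as its brightest probe set lies far above both floors. Those settings therefore say little about it. Its ratio moved only with quantile (1.22), loess (1.23), the mean over probe sets (1.58) and 100 units added (1.13). The members' median log2 ratio ran from 0.07 (quantile and loess) to 0.14 (no floor). Klf12 had a ratio of 0.28 with the mean over probe sets, against -0.16, because its probe sets differ in sign, and Klf4 had 0.16 without a floor. Over all genes, 113 were at least 2-fold higher and 59 lower. Without a floor these counts were 1629 and 1655, and with 100 units added 62 were higher. The higher share of these calls was 65.7% as deposited, 51.9% after loess and 49.6% without a floor. No paired analysis was possible because each group held 1 array. Signals near the floors limit Klf2 and Klf4.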

Other observations

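Some probe sets of KLF genes outside the 10 that exceeded neither floor had signals that differed between the arrays and carry no ratio. The Klf7 probe set 1419354_at read 316.3 in the positive and 100.9 in the negative array, while the Klf7 probe set 1449439_at read 72.8 in the positive and 139.8 in the negative array. The Klf17 probe set 1438899_at read 91.2 in the positive and 250.5 in the negative array.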
